A study of Homo sapiens with 9 samples.

Results

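The genes described here code for the translation initiation factors, their regulators and a few close relatives. They were taken from the array annotation as all probe sets that carry exactly 1 gene symbol beginning with EIF1, EIF2, EIF3, EIF4, EIF5 or EIF6, with antisense and pseudogene symbols left out. This rule gave 167 of 49293 probe sets and 51 of the 18132 genes that have a probe set of their own. By family, the genes were 5 EIF1, 5 EIF2, 5 EIF2B, 4 EIF2AK, 12 EIF3, 11 EIF4, 3 EIF4EBP (EIF4EBP1, EIF4EBP2 and the transporter EIF4ENIF1), 5 EIF5 and 1 EIF6. The rule used symbols alone and no values, but it was set with earlier results of these data known. EIF3C is measured only together with EIF3CL, and EIF4EBP3 only together with a read-through gene, so neither is a member. The Y-linked member EIF1AY is counted in every total, and its values are not given.

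The study profiled Y79, an established human retinoblastoma cell line grown in RPMI medium, on Affymetrix arrays. Its 3 groups of 3 arrays were untreated cells (Control), cells treated with gold nanoparticles alone (GNPs, the bare particle below) and cells treated with gold nanoparticles bearing HDM2 peptide (GNPs-HDM2, the conjugate below). The series title names the aim of blocking the binding of p53 to HDM2, its main inhibitor. Some label fields write the line as Y97, and no dose, time or processing date is given in the sources used here. The labels do not say that the arrays of a group came from separate cultures, so the p-values reflect only how these arrays vary, which may be technical.

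Translation of most messages begins when the small ribosomal subunit, loaded with initiator tRNA by the GTP-binding factor eIF2, is brought to the capped end of the mRNA. The cap is read by EIF4E, held by the scaffold EIF4G and opened by the helicase EIF4A, while the many-subunit factor eIF3 bridges that complex to the small subunit. Cells restrain the process at a pair of points: the EIF2AK kinases phosphorylate EIF2S1 and so block its exchange factor eIF2B, and the EIF4EBP proteins hold EIF4E away from EIF4G until the kinase MTOR phosphorylates them. Messages of ribosomal proteins and of many translation factors open with a run of pyrimidines that couples their translation to MTOR and LARP1.

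Because such a run is a feature of the sequence that the choice of members did not use, it was looked for in the promoters. The windows found for EIF3 genes are shown beside those found for EIF2AK kinases. RefSeq promoter windows (GRCh38.p14, 250 bases before to 50 after the first listed start of a gene) matched 43 of 51 members. They covered 7 of 12 EIF3 genes, without EIF3A, EIF3E, EIF3G, EIF3H and EIF3L, and 3 of 4 kinases, without EIF2AK1. The run was counted where a C followed by 6 or more pyrimidines lay on the transcribed strand within 20 bases of the start. Among genes with a window it was present in 7 of 7 EIF3 genes and 0 of 3 EIF2AK genes. It was in 7 of 18 genes of the EIF2, EIF2AK and EIF4 families together (38.9%), against 20% of the 27305 promoters in the table. The EIF5 (0 of 5), EIF4EBP (0 of 2) and EIF6 (0 of 1) windows also lacked it. Each line gives 40 bases before and 20 from the start onwards, 5′ to 3′ on the transcribed strand, with the run in capitals.
EIF3B (chr7:2354787-2354846, plus strand): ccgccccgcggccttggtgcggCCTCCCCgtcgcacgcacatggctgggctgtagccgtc
EIF3D (chr22:36529147-36529206, minus strand): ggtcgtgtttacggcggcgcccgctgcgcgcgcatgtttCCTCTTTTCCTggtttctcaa
EIF3F (chr11:7987297-7987356, plus strand): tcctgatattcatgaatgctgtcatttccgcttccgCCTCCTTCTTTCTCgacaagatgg
EIF3I (chr1:32222367-32222426, plus strand): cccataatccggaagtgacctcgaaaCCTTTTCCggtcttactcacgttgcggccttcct
EIF3J (chr15:44537107-44537166, plus strand): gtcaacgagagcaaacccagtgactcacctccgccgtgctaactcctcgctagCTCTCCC
EIF3K (chr19:38619148-38619207, plus strand): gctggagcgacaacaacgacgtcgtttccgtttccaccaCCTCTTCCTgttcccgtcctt
EIF3M (chr11:32583791-32583850, plus strand): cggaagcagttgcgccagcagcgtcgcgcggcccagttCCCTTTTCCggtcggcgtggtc
EIF2AK2 (chr2:37156961-37157020, minus strand): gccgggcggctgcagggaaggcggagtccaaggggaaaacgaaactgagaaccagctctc
EIF2AK3 (chr2:88627445-88627504, minus strand): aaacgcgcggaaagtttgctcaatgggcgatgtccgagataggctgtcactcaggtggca
EIF2AK4 (chr15:39934075-39934134, plus strand): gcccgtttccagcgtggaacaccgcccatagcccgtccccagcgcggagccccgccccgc

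In the windows of EIF3D, EIF3F, EIF3K and EIF3M the run spans the listed start, whereas in EIF3B and EIF3I it lies before it and in EIF3J after it. The 3 kinase windows hold no such run. The palindrome CACGTG, the E-box read by MYC and related factors on either strand, was present in 11 of the 43 member windows (25.6%) and 5 of 11 EIF4 windows, against 7.43% of all windows. Both matches describe letters in a window and not a site in use.

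The deposited log2 values are relative to a baseline specific to the probe set, so they carry no absolute level, and log2 is used below for every value and difference. The step size of the stored numbers still sorts probe sets into classes of baseline level, called dim (2 to 4), middle (4 to 8) and bright (8 to 16). Of the 167 member probe sets 85 were bright (50.9%), 61 middle, 15 dim and 6 unclassed, whereas 17.8% of all probe sets were bright. Class and direction moved together with the conjugate over the whole array: 59.4% of bright probe sets fell and 7.4% rose, whereas 0.826% of dim ones fell and 33.9% rose. Gene differences between conjugate and untreated cells are therefore given as deposited and, where the call or the direction differs or the size moves by over 1.5 times, also after each array was centred on its median within each class, called level-centred. The identity of the cells was checked with marker lists. Of 7 measured photoreceptor and retinoblastoma genes 5 had a bright probe set, and no probe set of pigment epithelium, blood or fibroblast markers was bright. The summed photoreceptor markers lay between 2.16 and 5.34 on untreated arrays and between -10.84 and -0.12 with the conjugate. The other 3 lists lay higher with the conjugate (1.05 to 3.70, 1.11 to 2.73 and 0.71 to 2.56) than on untreated arrays (-0.22 to 0.37 over the 3). These sums are as deposited and were not level-centred. Of the photoreceptor probe sets 10 of 16 were bright, whereas 6 of 12, 9 of 11 and 10 of 16 in the other lists were dim. A change of cell types therefore cannot be told apart here from the array-wide shifts by class. The part of these shifts in the results below was not tested. In bulk RNA, fewer cells of a type and less RNA per cell cannot be told apart.

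Most initiation factor genes were lower in cells given the conjugate than in untreated cells. Of the 51 genes 33 fell, 2 rose and 16 did not pass limma's threshold of adjusted p under 0.05, with a median difference of -0.90. Over all 18132 genes 25.1% fell and 33.1% rose, and the median was 0.25. Of the 167 probe sets 88 fell, 72 of them by at least 2-fold, and 8 rose, beside 23.7% and 24.9% of all probe sets. The 33 falls ran through every family, from the kinases that sense stress to the cap complex. After level centring 23 genes fell and 4 rose, beside 22.3% and 23.8% of all genes, and the member median was -0.27. Of the 33 genes 22 fell in both, and the other 11 (EIF1B, EIF2A, EIF2B2, EIF2B4, EIF3E, EIF3H, EIF3J, EIF3L, EIF4A2, EIF4A3 and EIF6) fell only as deposited. Quantile normalization left 4 falls (EIF2AK1, EIF3A, EIF4B and EIF4G1) and 1 rise (EIF4E3), beside 7.47% and 3.15% of all genes, with a member median of -0.39. Centring each array on its overall median gave 35 falls and 1 rise. These scalings moved the median of all genes from 0.25 to 0.07 (level-centred), 0.10 (quantile) and 0.08 (array median). Without conjugate replicate 1 the falls numbered 21, and in a fit of the untreated and conjugate groups alone they numbered 22. The 2 rises became 0 without untreated replicate 3, 1 without untreated replicate 2 and 4 without conjugate replicate 3.

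**Figure D1:**
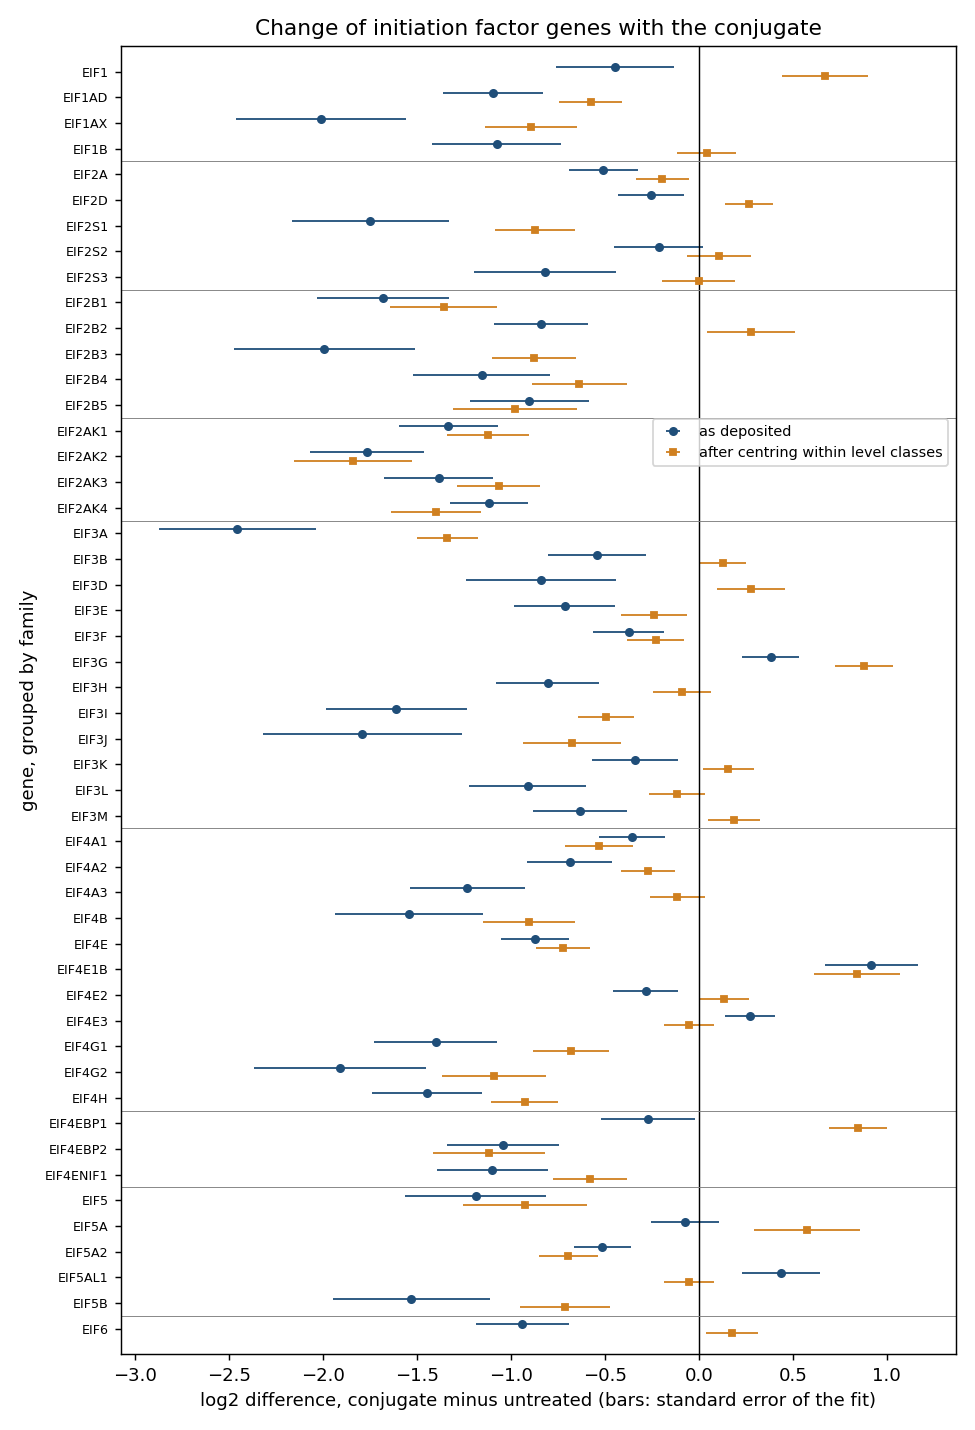
Log2 difference between conjugate and untreated arrays (x axis) for 50 initiation factor genes (y axis, grouped by family, 3 arrays a group), with the standard error of the limma fit as bars. Circles are values as deposited and squares are level-centred values. Most circles lie left of 0, and the squares of the EIF2AK kinases stay there while those of several EIF3 genes lie at or right of 0.

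The 4 kinases of the EIF2AK family all fell, and did so on both scales. EIF2AK1, the heme-regulated kinase, lay at -0.016, -0.050 and 0.30 on the untreated arrays, 0.19, 0.23 and 0.19 with the bare particle and -1.13, -1.91 and -0.72 with the conjugate. All 3 conjugate values were below the other 6, and the difference was log2 -1.33 with a standard error of 0.27 (limma adjusted p = 0.00451), or 2.52-fold. EIF2AK2, the double-stranded RNA sensor known as PKR, had values of -0.29, -0.15 and 0.059 on the untreated arrays, 0.023, -0.0064 and -0.041 with the bare particle and -2.24, -2.38 and -1.05 with the conjugate. Its groups did not overlap, and the conjugate differed from untreated cells by log2 -1.76 with a standard error of 0.30 (limma adjusted p = 0.00285). This was the deepest fall of the 4 kinases as deposited, 3.4-fold.

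For EIF2AK3, the endoplasmic reticulum stress kinase known as PERK, the values were 0.37, 0.057 and -0.097 on the untreated arrays, -0.25, -0.11 and 0.036 with the bare particle and -1.51, -1.78 and -0.54 with the conjugate. Again the conjugate arrays lay below all others, with a difference of log2 -1.39 with a standard error of 0.29 (limma adjusted p = 0.00545). EIF2AK4, the amino acid sensor known as GCN2, stood at 0.24, 0.18 and -0.12 on the untreated arrays, -0.15, 0.046 and 0.18 with the bare particle and -1.04, -1.36 and -0.65 with the conjugate. It fell by 1.12 with a standard error of 0.21 (limma adjusted p = 0.00358) and its groups did not overlap. Level-centred differences were -1.12 for EIF2AK1, -1.84 for EIF2AK2, -1.06 for EIF2AK3 and -1.40 for EIF2AK4, all past the threshold. The family's 10 middle probe sets had a median of -1.48 and 8 of them fell, against 25.1% of all middle probe sets.

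Probe sets of one kinase did not always move together. EIF2AK1 has 8, whose differences ran from -2.29 to 0.06, and 5 of them fell. The bright probe set of EIF2AK3 fell by 1.18 as deposited and read -0.063 level-centred (limma adjusted p = 0.817). Its middle ones fell level-centred too (-0.83 and -2.30). EIF2AK4 has a middle probe set at -2.81 (limma adjusted p = 0.00106) and a dim one at 0.58 (adjusted p = 0.0545), so its value as a gene is the mean of unlike parts. With probe sets of less specific design (IDs ending in _s_at or _x_at) left out, EIF2AK4 therefore rests on the dim one and was higher (0.58, limma adjusted p = 0.0376). Quantile normalization kept the call of EIF2AK1 alone (-0.71, limma adjusted p = 0.0331), and EIF2AK2, EIF2AK3 and EIF2AK4 read -0.60, -0.74 and -0.62. All 4 kinases kept their calls when any 1 array was left out.

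Among the subunits of eIF2, the kinases' substrate, EIF2S1 fell and the other subunits did not pass as genes. EIF2S1 codes for the alpha subunit and lay at -0.030, -0.13 and 0.18 on the untreated arrays, 0.027, 0.052 and -0.017 with the bare particle and -1.95, -2.70 and -0.58 with the conjugate. No conjugate value reached the untreated range, and the difference was log2 -1.75 with a standard error of 0.42 (limma adjusted p = 0.00855), 3.36-fold. Level-centred it fell too (-0.87, limma adjusted p = 0.0101), and under quantile normalization it read -0.67 (adjusted p = 0.0539). EIF2S2, the beta subunit, had -0.21 with a standard error of 0.24 (limma adjusted p = 0.44) and 0.11 level-centred. This averages unlike parts: its bright probe set fell (-1.255, limma adjusted p = 0.0386), whereas its 2 middle ones read 0.26 and 0.36. Level-centred the bright one read -0.14 and did not pass. EIF2S3, the gamma subunit that binds GTP, had -0.82 with a standard error of 0.38 (limma adjusted p = 0.0842) and -0.00068 level-centred. The 4 probe sets of EIF2S3 ran from -1.07 to -0.70, and 1 of them fell. EIF2A, a related initiator tRNA carrier, lay at 0.22, -0.080 and 0.28 on the untreated arrays, 0.30, 0.20 and 0.54 with the bare particle and -0.47, -0.55 and -0.080 with the conjugate. Its conjugate values were just below the untreated ones, and it fell by 0.51 with a standard error of 0.19 (limma adjusted p = 0.039) as deposited but not level-centred (-0.19). Its call was lost without untreated replicate 1 or 3, conjugate replicate 1 or 2 or any 1 bare particle array. EIF2D, another carrier, had -0.25 (limma adjusted p = 0.228) and 0.27 level-centred. The family median was -0.51 as deposited and -0.00068 level-centred.

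All 5 subunits of eIF2B, the exchange factor that recharges eIF2, fell as deposited, with a median of -1.16. EIF2B3, the gamma subunit, read 0.031, -0.16 and -0.20 on the untreated arrays, 0.091, 0 and 0.065 with the bare particle and -2.54, -3.09 and -0.69 with the conjugate. Conjugate replicates 1 and 2 were far lower than replicate 3, which still lay below every untreated array, and the difference was log2 -1.99 with a standard error of 0.48 (limma adjusted p = 0.00888). EIF2B1, the alpha subunit, read -0.57, -0.16 and 0.45 on the untreated arrays, 0.085, 0.18 and 0.16 with the bare particle and -1.996, -2.35 and -0.97 with the conjugate. Its untreated arrays spread widely, yet none reached the conjugate range, and it fell by 1.68 with a standard error of 0.35 (limma adjusted p = 0.00526). EIF2B2, EIF2B4 and EIF2B5 fell by 0.84, 1.16 and 0.90, each with conjugate replicate 3 inside the untreated range. Level-centred, EIF2B1, EIF2B3 and EIF2B5 still fell, with EIF2B3 at -0.88, while EIF2B4 read -0.64 (limma adjusted p = 0.0633) and EIF2B2 turned to 0.28. The 5 falls became 3 without untreated replicate 1 or 3 and 2 without conjugate replicate 1 or 2.

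**Figure D2:**
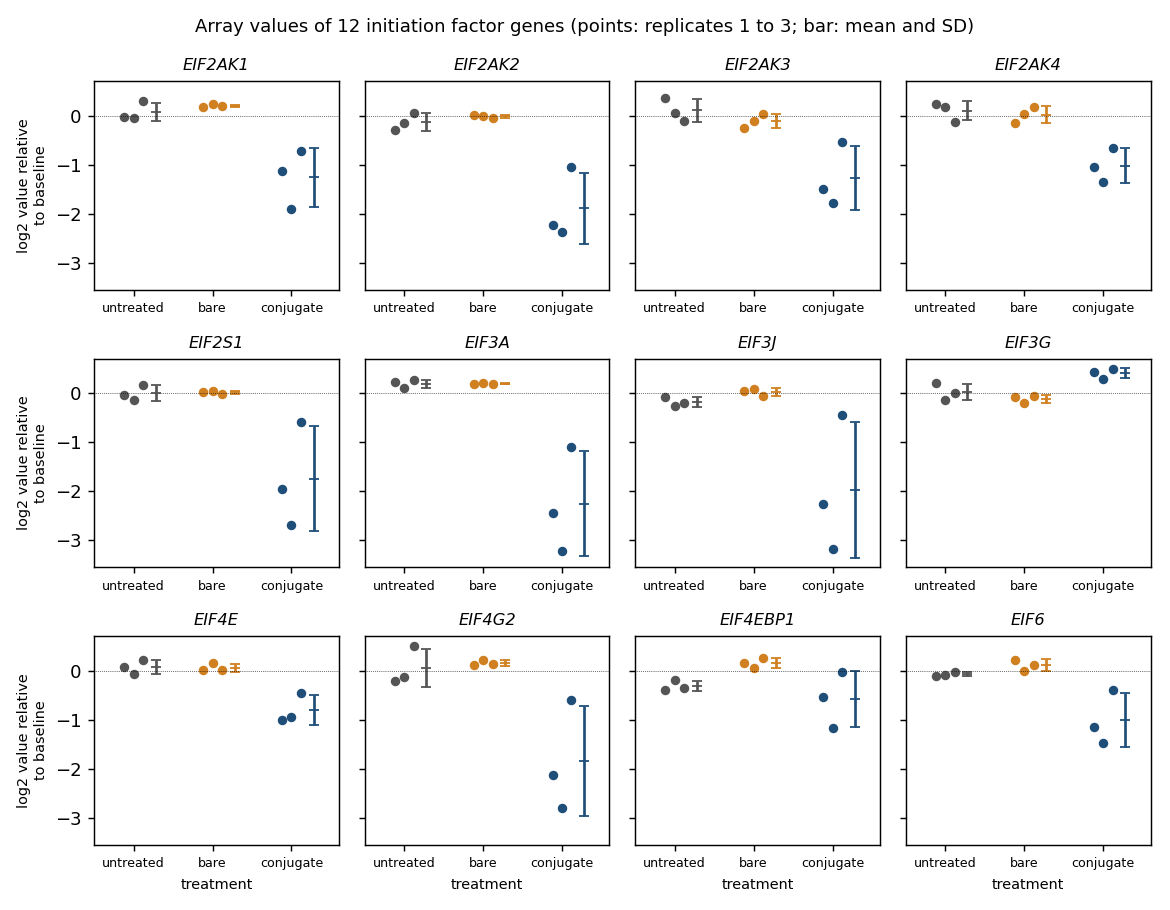
Log2 value relative to the probe set baseline (y axis) of 12 initiation factor genes on each array (points, replicates 1 to 3 of the untreated, bare particle and conjugate groups on the x axis), with the mean and SD of each group as bars. The conjugate arrays of the 4 EIF2AK kinases lie below all other arrays, replicate 3 nearest to them, whereas EIF3G lies above and EIF4EBP1 overlaps the untreated arrays.

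The EIF3 subunits, parts of one large complex, split into a few deep falls and many small differences. Of 12 genes 6 fell and none rose, with a median of -0.76, which went to -0.10 when level-centred. EIF3A, the largest scaffold subunit, stood at 0.22, 0.11 and 0.26 on the untreated arrays, 0.20, 0.21 and 0.18 with the bare particle and -2.45, -3.22 and -1.09 with the conjugate. Its untreated and bare arrays lay within a narrow band that no conjugate array came near, and it fell by 2.46 with a standard error of 0.42 (limma adjusted p = 0.00275), 5.48-fold. This was the largest fall as deposited of the 50 genes whose values are given. EIF3A also fell level-centred (-1.34, where EIF2AK2, EIF2AK4 and EIF2B1 fell further) and under quantile normalization (-1.32, limma adjusted p = 0.00114). EIF3J, a loosely held subunit at the mRNA channel, stood at -0.069, -0.26 and -0.20 on the untreated arrays, 0.055, 0.094 and -0.056 with the bare particle and -2.26, -3.19 and -0.45 with the conjugate. Conjugate replicates 1 and 2 were very low and replicate 3 only just below the untreated values, for a difference of log2 -1.79 with a standard error of 0.53 (limma adjusted p = 0.0182) that did not pass when level-centred (-0.68, adjusted p = 0.0591).

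EIF3I, a small propeller-shaped subunit, fell by 1.61 with a standard error of 0.38 (limma adjusted p = 0.0078) without overlap of the groups, and its level-centred difference was -0.49. EIF3E, EIF3H and EIF3L fell by 0.71, 0.80 and 0.91 as deposited, with conjugate replicate 3 inside the untreated range. None of them passed when level-centred (-0.24, -0.088 and -0.11). EIF3E and EIF3L each include an unclassed probe set, centred on the array's overall median instead, which read -0.87 and -1.075 level-centred. The bright probe set of EIF3E read 0.39 and those of EIF3L ran from -0.37 to 0.83. EIF3B, EIF3D, EIF3F, EIF3K and EIF3M did not pass either way. Their differences were -0.54, -0.84, -0.37, -0.34 and -0.63 as deposited and 0.13, 0.28, -0.23, 0.16 and 0.19 level-centred. EIF3G, an RNA-binding subunit picked here after its values were seen, lay at 0.20, -0.13 and 0.012 on the untreated arrays, -0.082, -0.20 and -0.055 with the bare particle and 0.43, 0.30 and 0.51 with the conjugate. It was the EIF3 gene whose conjugate values all lay above the untreated ones, with log2 0.38 with a standard error of 0.15 (limma adjusted p = 0.051), and level-centred it rose by 0.88 (limma adjusted p = 0.00275). The 2 bright probe sets of EIF3G read -0.0045 and -0.24 as deposited, did not pass and overlapped the untreated values. Level-centred both rose (1.11 and 0.88). As deposited the difference of the gene thus rests on its middle (0.46) and unclassed (1.31) probe sets. The 6 EIF3 falls became 3 without untreated replicate 1, 2 or 3 or without conjugate replicate 2, 2 without conjugate replicate 1 and 11 without conjugate replicate 3. Without conjugate replicate 2 the EIF3 median was -0.42. A probe set rose in each of EIF3B (1.05), EIF3F (0.92), EIF3G (1.31) and EIF3K (1.13) while others of EIF3B, EIF3F and EIF3K fell. With the most specific probe sets alone EIF3B rose by 0.48 (limma adjusted p = 0.0222).

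Of the 11 EIF4 factors, which bind and unwind the capped end, 7 fell and 1 rose, with a median of -0.87 (-0.53 level-centred). EIF4E, the cap-binding protein, lay at 0.078, -0.072 and 0.22 on the untreated arrays, 0.016, 0.16 and 0.016 with the bare particle and -0.9998, -0.94 and -0.45 with the conjugate. Its groups did not overlap, its conjugate SD of 0.30 was below the member median, and it fell by 0.87 with a standard error of 0.18 (limma adjusted p = 0.0053), 1.83-fold. Its 7 probe sets ran from -3.10 to 1.07, 4 of them fell, and the 2 most specific ones, both dim, gave a rise of 1.03 for the gene (limma adjusted p = 0.0399). EIF4G2, a relative of the scaffold that lacks the EIF4E contact, lay at -0.21, -0.12 and 0.51 on the untreated arrays, 0.12, 0.23 and 0.14 with the bare particle and -2.14, -2.80 and -0.60 with the conjugate. All conjugate values were below all untreated values, and the fall was log2 -1.91 with a standard error of 0.46 (limma adjusted p = 0.00855), or -1.09 level-centred. EIF4B, the cofactor of the helicase, lay at 0.29, 0.073 and -0.039 on the untreated arrays, -0.12, -0.039 and -0.13 with the bare particle and -1.75, -2.23 and -0.31 with the conjugate. It fell by 1.54 with a standard error of 0.39 (limma adjusted p = 0.0107) without overlap, and also level-centred (-0.90) and under quantile normalization (-0.77, adjusted p = 0.0288). The 5 probe sets of EIF4B ran from -2.40 to -0.36 as deposited, and 4 of them fell. Level-centred they disagreed. A bright one rose (0.76, limma adjusted p = 0.0283), the other bright ones read -0.89 and -0.20 without passing, and the middle ones fell (-1.70 and -2.475).

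The main scaffold EIF4G1 fell by 1.40 and the second helicase cofactor EIF4H fell by 1.45, and both also fell level-centred (-0.68 and -0.93). Of the helicases, EIF4A2 fell by 0.69 and EIF4A3, of the exon junction complex, fell by 1.23. Neither passed when level-centred (-0.27 and -0.11). The 2 bright probe sets of EIF4A2 fell (-1.93 and -1.40), whereas its middle and dim ones read 0.45 and 0.13 and did not pass. EIF4A1, the most studied helicase, read -0.35 (limma adjusted p = 0.103) and passed only level-centred (-0.53, adjusted p = 0.0366). Of its 3 middle and 1 dim probe sets only 1 middle one fell (-1.28, or -1.36 level-centred). The 3 bright probe sets that EIF4A1 shares with SENP3-EIF4A1 went the other way. They fell as deposited (median -1.19) and did not pass level-centred (-0.071). The cap-binding relatives EIF4E2 and EIF4E3 read -0.28 and 0.27 as deposited and 0.13 and -0.053 level-centred, and did not pass. EIF4E1B, a relative known from germ cells, had 1 middle probe set at -0.32, 0.020 and -0.44 on the untreated arrays, 0.48, 0 and -0.32 with the bare particle and 0.73, 0.97 and 0.33 with the conjugate. Its conjugate values lay above the untreated ones but overlapped those of the bare particle, and it rose by log2 0.92 with a standard error of 0.25 (limma adjusted p = 0.0126), 1.89-fold, and by 0.84 level-centred.

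The brakes on EIF4E did not move as one. EIF4EBP1, the best-known of them, lay at -0.38, -0.19 and -0.35 on the untreated arrays, 0.15, 0.068 and 0.27 with the bare particle and -0.54, -1.16 and -0.026 with the conjugate. Its conjugate values straddled the untreated ones, and the difference was log2 -0.27 with a standard error of 0.25 (limma adjusted p = 0.358). Level-centred it rose by 0.85 (limma adjusted p = 0.00291), and its 3 probe sets are all bright, a class whose median over the whole array was -1.16. EIF4EBP2 lay at -0.37, -0.025 and 0.85 on the untreated arrays, 0.48, 0.49 and 0.53 with the bare particle and -1.14, -1.06 and -0.46 with the conjugate. Untreated replicate 3 was higher than its fellows, the conjugate values lay below all of them, and it fell by 1.04 with a standard error of 0.30 (limma adjusted p = 0.0164), with a level-centred difference of -1.12. EIF4ENIF1, which carries EIF4E into the nucleus, lay at -0.10, 0.16 and 0.091 on the untreated arrays, 0.098, 0.14 and 0.051 with the bare particle and -0.84, -1.83 and -0.47 with the conjugate. It fell by 1.10 with a standard error of 0.29 (limma adjusted p = 0.0125) without overlap (-0.58 level-centred), although its bright probe set read -2.80 and its middle one 0.61 and both passed.

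Start-codon selection genes of the EIF1 family were split. EIF1AX, which codes for the scanning factor eIF1A, lay at -0.65, -0.14 and 0.42 on the untreated arrays, 0.32, 0.25 and 0.32 with the bare particle and -2.43, -3.01 and -0.97 with the conjugate. The conjugate arrays were lower than any other, and it fell by 2.01 with a standard error of 0.45 (limma adjusted p = 0.0068), 4.03-fold, with a level-centred difference of -0.89. EIF1AD, a related nuclear protein, lay at -0.19, -0.21 and -0.13 on the untreated arrays, 0.13, -0.13 and -0.0013 with the bare particle and -1.15, -1.94 and -0.73 with the conjugate. Without overlap it fell by 1.09 with a standard error of 0.27 (limma adjusted p = 0.0089), with -0.57 level-centred. Its bright probe set read -1.96 and fell, whereas its middle one read -0.23 and did not pass (limma adjusted p = 0.47). EIF1B fell by 1.07 as deposited and read 0.041 level-centred, and EIF1 read -0.44 as deposited (limma adjusted p = 0.233) and rose by 0.67 level-centred.

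In the EIF5 family the subunit-joining GTPase EIF5B lay at -0.16, -0.077 and 0.39 on the untreated arrays, 0.12, 0.18 and 0.0081 with the bare particle and -1.53, -2.49 and -0.42 with the conjugate. Conjugate replicate 3 was the nearest to the untreated range but still below it, and the gene fell by 1.53 with a standard error of 0.42 (limma adjusted p = 0.0135), against -0.71 level-centred. EIF5, the protein that triggers GTP hydrolysis on eIF2, lay at -0.81, -0.86 and 0.39 on the untreated arrays, -0.094, 0.0069 and -0.24 with the bare particle and -1.80, -2.13 and -0.91 with the conjugate. Untreated replicates 1 and 2 were themselves low, just above conjugate replicate 3, and the fall was log2 -1.19 with a standard error of 0.37 (limma adjusted p = 0.0233), which quantile normalization took to 0.02. EIF5A2, a translation elongation factor despite its name, fell by 0.52, whereas its more abundant paralog EIF5A had -0.075 (limma adjusted p = 0.722) and the near-identical copy EIF5AL1 0.43 (adjusted p = 0.0922). Level-centred, EIF5A read 0.58 and EIF5AL1 -0.052, and neither passed. The calls of EIF5, EIF5A2 and EIF5B were all lost without untreated replicate 3. EIF5A and EIF5AL1 can share probes, so their split is uncertain. EIF6, which keeps the large ribosomal subunit from joining too soon, lay at -0.10, -0.078 and -0.020 on the untreated arrays, 0.23, -0.0076 and 0.12 with the bare particle and -1.15, -1.48 and -0.39 with the conjugate. The groups did not overlap and it fell by 0.94 with a standard error of 0.25 (limma adjusted p = 0.0119) as deposited, but level-centred it read 0.18.

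The EIF3 subunits were set beside the 20 genes of the EIF2, EIF2AK and EIF4 families. Members are not replicates, so the difference between the families was not tested. As deposited 6 of 12 EIF3 genes and 13 of 20 comparison genes fell, with medians of -0.76 and -0.99. Level-centred, 2 and 11 fell and the medians were -0.10 and -0.61. These medians include unclassed probe sets, 5 of 42 for EIF3 and 1 of 71 for the comparison genes, which were centred on the array's overall median. Under quantile normalization 1 and 3 fell, with medians of -0.35 and -0.51. Within the bright class the 27 EIF3 probe sets had a median of -0.96 and 16 fell, and the 29 comparison probe sets had a median of -1.46 and 24 fell, beside -1.16 for all bright probe sets. In the middle class 9 EIF3 probe sets had a median of 0.10 (1 fell and 3 rose) and 31 comparison probe sets one of -0.99 (17 fell and 2 rose), beside 0.14 for all middle ones. Each of the 10 dim comparison probe sets failed the threshold. Taking every member, 54 of 85 bright probe sets fell (63.5%), near the 59.4% of all bright ones, whereas 32 of 61 middle probe sets fell (52.5%), against 25.1%.

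**Figure D3:**
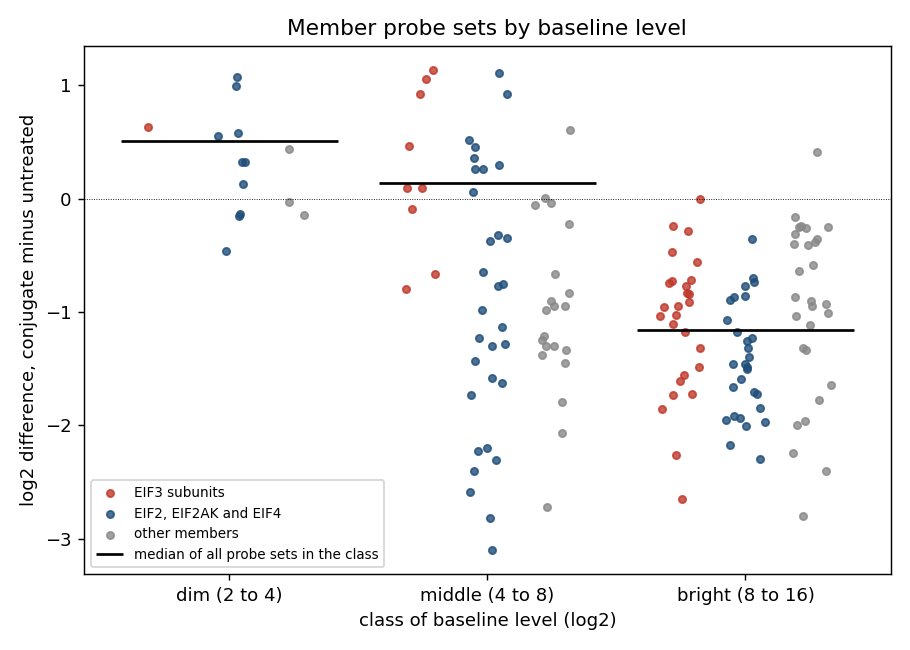
Log2 difference between conjugate and untreated arrays (y axis) of the member probe sets in each class of baseline level (x axis, log2), coloured by family, with the median of all probe sets of the class as a black line. In the bright class members scatter about the line at -1.16, and in the middle class most blue points (EIF2, EIF2AK and EIF4) lie below the line at 0.14 while the EIF3 points lie about it.

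The promoter features were set beside these differences without a test. The 16 genes with a pyrimidine run and given values had a median difference of -0.83 and the 26 without one -1.10 (-0.21 and -0.61 level-centred). The 11 genes with CACGTG had a median of -1.23 and the 31 without it -0.90. The ranges overlapped in both cases, from -1.91 to -0.25 with a run and from -2.01 to 0.92 without.

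The bare particle left the initiation factor genes near their untreated values. By limma 0 of 51 genes passed in either direction, where 0.0221% of all genes rose and 0 fell. The median difference was 0.05 over a range of -0.33 to 0.61, and the smallest adjusted p was 0.864. At an unadjusted p under 0.05 there was 1 gene, EIF2S2, against 972 of all genes. EIF2S2 lay at -0.16, -0.39 and -0.016 on untreated arrays and at 0.55, 0.33 and 0.39 with the bare particle. These groups did not overlap, for a difference of 0.61. Quantile normalization called 2 member genes higher and 1 lower, beside 6.97% and 8.37% of all genes, and array weights called 6 higher and 1 lower, beside 14.9% and 16.9%. The EIF2AK median was 0.02 and the EIF3 median -0.13.

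Against the bare particle, which separates the peptide conjugate from gold alone, the conjugate again gave 33 falls and 2 rises among the 51 genes, with a median of -0.95. Over all genes 29.1% fell and 43.2% rose. This comparison shares the conjugate arrays with the one above. EIF2AK1 to EIF2AK4 fell by 1.46, 1.88, 1.17 and 1.04. EIF3A fell by 2.46, EIF1AX fell by 2.43 and EIF2B3 fell by 2.16 (-1.27, -1.25 and -0.97 level-centred). EIF2S2 and EIF4EBP1, which did not pass against untreated cells, differed by -0.83 (limma adjusted p = 0.0115) and -0.74 (adjusted p = 0.0234) as deposited. Level-centred, EIF2S2 still fell (-0.48, limma adjusted p = 0.0354), whereas EIF4EBP1 turned to a rise of 0.44 (adjusted p = 0.03). Of the EIF3 genes 3 fell and EIF3G rose by 0.52 (adjusted p = 0.0117), with a family median of -0.51. Without conjugate replicate 3 the EIF3 falls numbered 11, and without conjugate replicate 2 the median was -0.24. EIF4E1B rose by 0.62 (limma adjusted p = 0.0425) as deposited and did not pass level-centred (0.55, adjusted p = 0.0626). Level-centred, 25 genes fell and 6 rose, beside 26.9% and 31.2% of all genes, and the EIF3 median turned to 0.13. The 6 were EIF2B2, EIF2D, EIF3G, EIF3M, EIF4EBP1 and EIF5A. The 2 rises became 0 without bare particle replicate 2, and 1 without bare particle replicate 3, without conjugate replicate 2 or without any 1 untreated replicate.

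**Figure D4:**
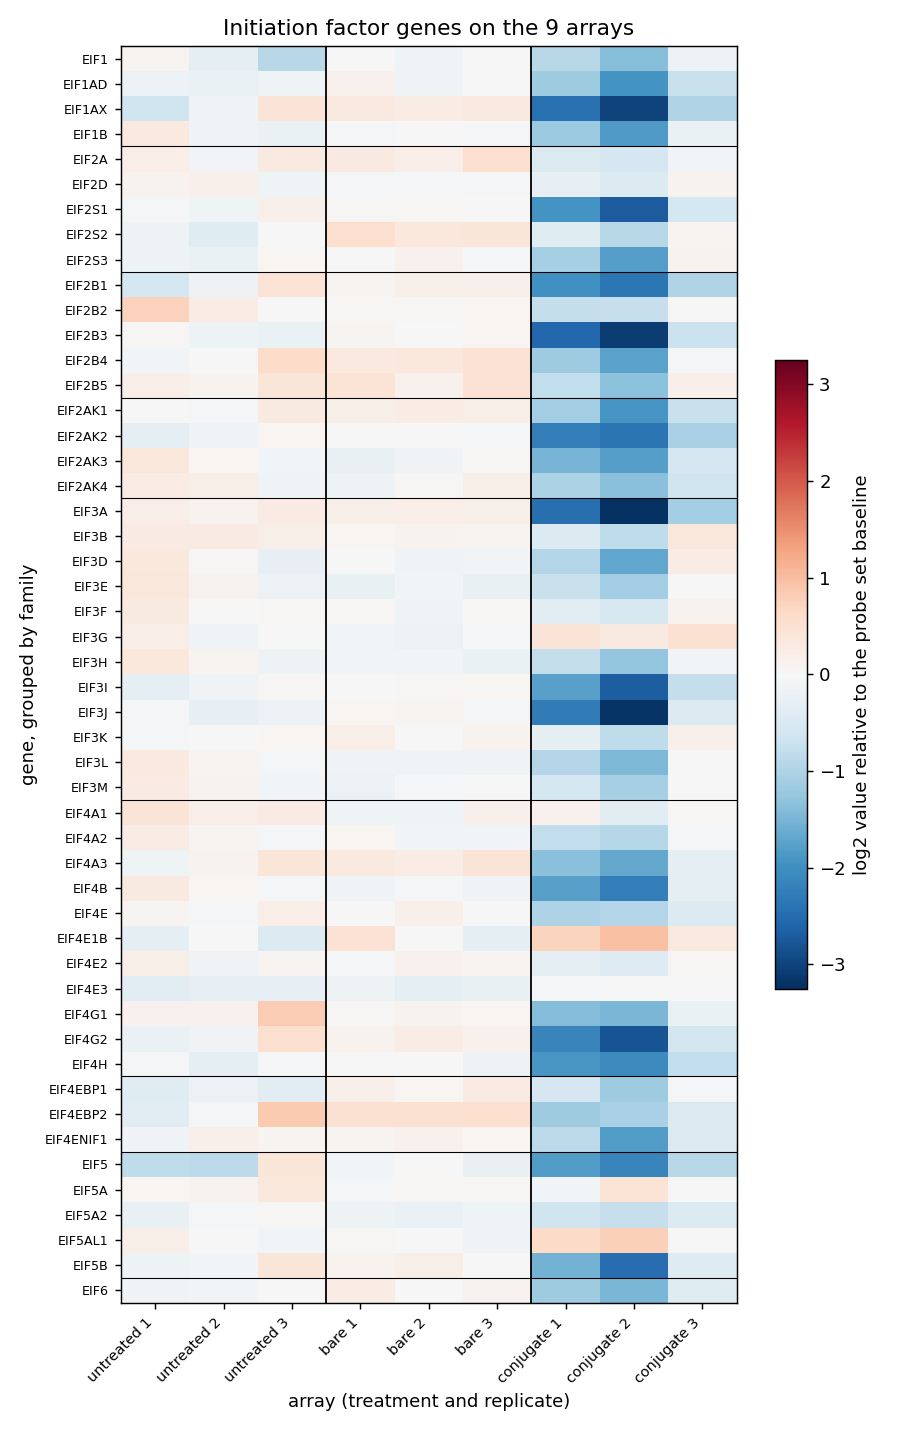
Log2 value relative to the probe set baseline (colour) of 50 initiation factor genes (y axis, grouped by family) on the 9 arrays (x axis). Conjugate replicate 2 is the darkest blue column and conjugate replicate 3 the palest of its group, and the bare particle columns resemble each other.

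The conjugate arrays differed among themselves far more than the other groups did. The median SD of the member genes was 0.611 with the conjugate, 0.173 in untreated cells and 0.081 with the bare particle, beside 0.396, 0.151 and 0.0892 over all genes. Of the 3 conjugate arrays replicate 2 was the lowest for 43 of 51 genes and replicate 3 the highest for 46, where 32.5% and 37.5% of all genes had that order. The median member value was -0.95, -1.37 and -0.19 on conjugate replicates 1, 2 and 3. For the EIF3 genes it was -0.75, -1.21 and 0.02, so replicate 3 lay at the untreated level, and for the kinases -1.32, -1.85 and -0.69, so it did not. All 3 conjugate values lay below all 3 untreated ones for 26 of the 51 genes and above them for 4, where 23.9% and 36% of all genes did so. The kinases contributed 4 of 4 to the first count and the EIF3 genes 3 of 12.

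Other genes of the pathway, 32 in a list of poly(A)-binding, cap-binding, elongation, termination and signalling genes, were counted in the same way. Of these 21 fell, 4 rose and 7 did not pass, with a median of -1.03, where 25.1% of all genes fell and 33.1% rose. Level-centred the median was -0.55, with 17 falls and 5 rises, beside 22.3% and 23.8% of all genes. The lowest adjusted p among the falls belonged to PDCD4, an inhibitor of EIF4A, which lay at -0.53, -0.28 and 0.098 on the untreated arrays, 0.20, 0.25 and 0.22 with the bare particle and -3.19, -3.53 and -2.33 with the conjugate. Every conjugate array was far below every other array, and it fell by 2.78 with a standard error of 0.29 (limma adjusted p = 0.000628), 6.87-fold. PPP1R15B, which keeps EIF2S1 dephosphorylated in unstressed cells, fell by 1.10 with a standard error of 0.18 (limma adjusted p = 0.00264) and read -0.58 level-centred. Its 4 probe sets ran from -2.39 to 0.57, and 3 of them fell and 1 rose. ABCE1, which recycles ribosomes, fell by 1.69 with a standard error of 0.29 (limma adjusted p = 0.00281). Of the rises, PPP1R15A, the stress-induced partner of PPP1R15B also called GADD34, lay at -0.54, -0.40 and -0.74 on the untreated arrays, -0.90, -0.75 and -0.65 with the bare particle and 0.64, 0.50 and 0.51 with the conjugate. Its 3 conjugate values agreed closely and lay above all others, and it rose by log2 1.11 with a standard error of 0.15 (limma adjusted p = 0.00145) and by 1.03 level-centred. The kinases of EIF4E, MKNK1 and MKNK2, rose by 0.78 (limma adjusted p = 0.0111) and 0.64 (adjusted p = 0.019). The 5 probe sets of MKNK2 ran from -0.35 to 2.48, and 1 of them rose. With the bare particle 0 of the 32 passed by limma, where 0.0221% of all genes rose and 0 fell, and 0 had an unadjusted p under 0.05. Quantile normalization called 2 higher and 1 lower, beside 6.97% and 8.37% of all genes. Array weights called 7 higher and 3 lower, beside 14.9% and 16.9%.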

How the data were processed

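Y79 cells in 3 groups of 3 arrays were analysed from the value table that the authors deposited. Its log2 values are relative to a baseline that the authors had subtracted from each probe set. The summarization tool and the log base are not given in the sources used here, base 2 is assumed, and 59.69% of probe sets hold an exact 0 on at least 1 array. Fold changes rest on that base. Arrays give no read depth, so the number of arrays limits the precision.

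Of the probe sets 102 array controls were left out, 1832 had several symbols and 2473 none. A gene is the mean of its probe sets with 1 symbol. Tests were 2-sided and used lmFit and eBayes of limma 3.58.1 in R 4.3.3 (data.table, version 1.17.8), with all 9 arrays in one fit and Benjamini-Hochberg adjustment over all 49293 probe sets or 18132 genes, at 0.05. Errors are standard errors of the fit unless SD is written. The fit takes the spread of the groups as equal, but the median member SD was 0.611 with the conjugate, 0.173 untreated and 0.081 with the bare particle. Standard errors and p-values of comparisons with the conjugate can therefore be too small. Those of the bare particle against untreated cells can be too large. The script was tested on simulated data.

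Level classes came from the step size of the stored numbers. In the level-centred setting unclassed probe sets were centred on the array's overall median. Other alternatives were array median and quantile scaling, the 2 groups alone, a replicate block, trend and robust variance, array weights (gene by gene), the median of probe sets, the most specific probe sets and leaving out each array. Centring combined with leaving out an array was chosen after seeing the data.

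Same-numbered arrays correlated at -0.033 to 0.231 in their deviations from the group means, so the numbers were not taken as pairs. No 2 arrays of a group held the same values. Members, families, the pathway list and the marker lists were chosen with earlier results of these data known. All 9 values are given for the EIF2AK genes, EIF2S1, EIF4E, EIF4EBP1, EIF4EBP2 and EIF6, and in each family for up to 2 rises and 2 falls of largest difference past the threshold. Of the pathway list up to 3 rises and 3 falls of smallest adjusted p are named.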

Additional observations from a re-analysis of the deposited data

How the results depend on the processing

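Counts and medians below compare the conjugate with untreated cells unless another comparison is named. The 33 falls stayed within 1.5 times of that number except under quantile normalization (4), without conjugate replicate 1 and with level centring without untreated replicate 3 (14). In the 2 groups alone the falls numbered 22, at the edge of that bound. With 1 array left out they ranged from 21 to 44. The 2 rises became 1 with each array centred on its median, with quantile normalization and in the 2 groups alone, 4 with level centring and with the most specific probe sets, and 5 with level centring without conjugate replicate 3, over 0 to 4 with 1 array left out. Of the probe sets 8 rose, against 1 with quantile normalization, 18 with level centring, 19 with array weights, and 29 and 14 with level centring without conjugate replicate 3 or untreated replicate 3 (5 to 17 with 1 array left out). Of the probe sets 88 fell, against 21, 56 and 47 with quantile normalization, level centring and the 2 groups alone, and 32 with level centring without untreated replicate 3 (40 to 118 with 1 array left out).

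With the bare particle, the counts of 0 became 2 higher and 1 lower with quantile normalization and 6 higher and 1 lower with array weights. Against the bare particle the 2 rises became 0 with each array centred on its median, 1 in the 2 groups alone and with the median of probe sets, 4 with trend and robust variance, 5 with the most specific probe sets, 6 with level centring, and 7 and 8 with level centring without conjugate replicate 3 or untreated replicate 3 (0 to 3 with 1 array left out). The EIF3 median of -0.76 ranged from -1.07 to -0.42 with 1 array left out, and became -0.10 with level centring, and -0.18 and -0.21 when conjugate replicate 3 or untreated replicate 3 was also left out. The median of the EIF2, EIF2AK and EIF4 genes, -0.99, became -0.51 with quantile normalization and with the most specific probe sets, and -0.50 with level centring without untreated replicate 3.

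Single genes that turned sign with level centring were EIF1 (0.67), EIF1B (0.041), EIF2B2 (0.28), EIF2D (0.27), EIF2S2 (0.11), EIF3B (0.13), EIF3D (0.28), EIF3K (0.16), EIF3M (0.19), EIF4E2 (0.13), EIF4E3 (-0.053), EIF4EBP1 (0.85), EIF5A (0.58), EIF5AL1 (-0.052) and EIF6 (0.18). Quantile normalization turned EIF1 (0.46), EIF2S2 (0.30), EIF4EBP1 (0.54) and EIF5 (0.018), the median of probe sets EIF2S2 (0.15), and the most specific probe sets EIF2AK4 (0.58), EIF2S2 (0.31), EIF3B (0.48), EIF3F (0.064), EIF3K (0.11) and EIF4E (1.03). With 1 array left out EIF2S2 ranged from -0.46 to 0.036 and EIF4EBP1 from -0.54 to 0.022, both turning without conjugate replicate 2, and EIF5A from -0.25 to 0.026, turning without untreated replicate 3 or conjugate replicate 1. The cause of these changes was not tested.

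With the replicate number as a block, 32 genes fell and 2 rose, 49 of 50 genes kept their side of the threshold and 1 lost its call. The numbers are not shown to pair the arrays. Signal over background is not given by values without a level, so no limit for dim probe sets can be stated.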

Other observations

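A further 18 probe sets carry an initiation factor symbol beside another symbol and belong to no member. With the conjugate, against untreated cells, 6 of them fell and 3 rose by limma as deposited, and 2 fell and 5 rose when level-centred. The 5 probe sets shared by EIF3C, a core EIF3 subunit, and its copy EIF3CL had a median of log2 -0.78, and 2 fell. Level-centred the median was 0.34, the same 2 fell and 2 others rose. The 3 shared by the helicase EIF4A1 and the read-through gene SENP3-EIF4A1 had a median of -1.19 and all 3 fell as deposited, but level-centred the median was -0.071 and none passed by limma (the smallest adjusted p was 0.684). The probe set shared by EIF5A and EIF5AL1 fell as deposited, at -1.46, and did not pass level-centred (-0.34, limma adjusted p = 0.373). The 2 shared by EIF4A2 and SNORA4, a small nucleolar RNA whose gene lies within it, had a median of 1.86 and both rose (2.17 level-centred, both again), and of the 2 shared with SNORA63, at a median of 0.86, 1 rose as deposited and none level-centred. The probe set shared by EIF4A1 and SNORD10 read 0.40 and did not pass, and rose by 1.52 level-centred (limma adjusted p = 0.0317). EIF4A2 itself fell by 0.69. The probe set of EIF4EBP3 and ANKHD1-EIF4EBP3 stood at -0.27 and did not pass. With the bare particle 0 of the 18 passed by limma, and their smallest adjusted p was 0.971.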
